A study of Rattus norvegicus with 10 samples.

Results

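Respiratory complexes II to V were represented by 45 genes, of 14218 genes with 1 symbol on the array. A gene was taken when a probe set carried a single symbol that was Sdha to Sdhd, Cyc1 or Cycs, or that began with Uqcr, Cox4 to Cox8 or Atp5, and each gene was read from its probe set with the highest mean over all arrays. This gave 4 genes of complex II, 8 of complex III, 17 of complex IV and 16 of complex V, all of which passed the filter on dim probe sets. Cytochrome c (Cycs), Cox7a2, Uqcrb, Atp5mc1 and Atp5mc2 were read only by probe sets that carry several symbols and are therefore not among the 45. RNA came from ventricular cardiomyocytes of Lewis rats 0 to 3 days old in primary culture, hybridised to Affymetrix arrays. Cells that had recovered from isolation then spent 3 days with electric pulses and blebbistatin (3 arrays), with the same pulses alone (4 arrays) or without pulses (3 arrays). The pulse rate was 1 Hz in a field of 2 V/cm. Blebbistatin, which inhibits myosin II and stops contraction, was used at 10 µmol/L. Each array held pooled RNA of duplicate experiments, and the titles place the arrays in 4 culture series, numbered here by date. Series 1 had no blebbistatin array, series 4 had no nonpulsed array, and no group received blebbistatin without pulses. The 3 comparisons share arrays with each other, so they are not independent.

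Complex II (succinate dehydrogenase) passes electrons from succinate to ubiquinone, complex III passes them to cytochrome c, complex IV passes them to oxygen, and complex V (ATP synthase) uses the resulting proton gradient to make ATP. The heart depends on this chain for nearly all of its ATP, and its reliance on it grows after birth. Several complex IV subunits exist as a muscle isoform and a ubiquitous isoform. Cox6a2, Cox7a1 and Cox8b are the heart and muscle isoforms in rodents, and Cox6a1, Cox7a2 and Cox8a are their ubiquitous counterparts. Cox4i2 is the less common, oxygen-responsive counterpart of Cox4i1.

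The 250 bases before the gene start are shown for the 3 muscle isoforms and for Cox8a, because the isoform comparison turns on these genes and Cox8b gave the largest fitted change of the 45 when blebbistatin-treated cultures were set against nonpulsed ones. Sequences are from RefSeq (GRCr8), 5′ to 3′ on the strand of the gene. The windows lie at chr1:192219717-192219966 (minus strand) for Cox6a2, at chr1:205408274-205408523 (minus) for Cox8b, at chr1:94568966-94569215 (plus) for Cox7a1 and at chr1:213833624-213833873 (minus) for Cox8a. Capitals mark matches to the motifs searched on both strands.
Cox6a2: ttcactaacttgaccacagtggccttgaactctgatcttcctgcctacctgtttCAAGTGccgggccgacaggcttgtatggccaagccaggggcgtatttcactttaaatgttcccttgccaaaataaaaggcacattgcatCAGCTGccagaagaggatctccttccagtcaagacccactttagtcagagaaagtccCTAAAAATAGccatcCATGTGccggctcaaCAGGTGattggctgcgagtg
Cox8b: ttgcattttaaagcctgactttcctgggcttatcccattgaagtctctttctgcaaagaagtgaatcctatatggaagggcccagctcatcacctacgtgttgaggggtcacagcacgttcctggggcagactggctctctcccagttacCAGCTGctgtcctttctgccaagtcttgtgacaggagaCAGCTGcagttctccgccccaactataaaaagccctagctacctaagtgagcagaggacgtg
Cox7a1: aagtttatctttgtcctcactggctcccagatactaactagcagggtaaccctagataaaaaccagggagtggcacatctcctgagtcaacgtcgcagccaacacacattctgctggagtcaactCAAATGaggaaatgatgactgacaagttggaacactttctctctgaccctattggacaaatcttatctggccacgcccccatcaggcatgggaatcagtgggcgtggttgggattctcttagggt
Cox8a: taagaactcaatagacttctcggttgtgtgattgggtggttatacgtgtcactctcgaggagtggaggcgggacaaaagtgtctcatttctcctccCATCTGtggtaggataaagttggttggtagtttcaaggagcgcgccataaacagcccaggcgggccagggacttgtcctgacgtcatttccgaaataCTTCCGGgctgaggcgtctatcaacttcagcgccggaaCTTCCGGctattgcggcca
The Cox6a2 window holds the MEF2 motif 50 bases before the gene start and 4 E-boxes, at 196, 107, 35 and 20 bases. The Cox8b window holds 2 E-boxes, at 100 and 62 bases, and the Cox7a1 window 1, at 125 bases; neither has the MEF2 letters. In Cox8a the capitals are 1 E-box at 154 bases and 2 ETS motifs at 57 and 19 bases. MEF2 and the E-box binding factors are known regulators of muscle genes, and ETS factors of many respiratory genes.

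The mean log2 value of a gene's probe set over the 10 arrays was above 12 for 34 genes and between 11 and 12 for 5, where the highest value in the table was 14.03. Cox4i2, Cox5a, Cox6b2, Cox6c-ps1, Cox7a1 and Cox7b2 were dim, with means under 9, and 0 genes reached the lowest level of an array. Cox5a, a nuclear-encoded complex IV subunit, was read from a dim probe set because another of its probe sets also carries a second symbol. The range of a gene over the 10 arrays was 0.54 at the median, against 0.72 over all genes tested. It ran to 0.23 for Cox6c at the low end and 3.43 for Cox4i2 at the high end. Levels of different probe sets cannot be set against each other, and every value below is a log2 level of 1 probe set or a log2 difference between arrays.

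A pair of arrays stood apart for this gene set. The nonpulsed array of series 1 was the lowest of the 10 for 34 of the 45 genes (75.6%), against 23.6% of all genes tested. The pulsed array of series 4 was the lowest for 7 (15.6%, against 6.77%), and these were the 2 lowest arrays for 33 of the 45. Relative to each gene's mean, the median over the 45 genes was -0.18 in that pulsed array and -0.32 in that nonpulsed array. It lay between 0.060 and 0.14 in the 3 blebbistatin arrays, between 0.030 and 0.093 in the other pulsed arrays, and at 0.010 and 0.001 in the other nonpulsed arrays. Over all genes the same median was 0.041 in pulsed series 4 and -0.039 in nonpulsed series 1. In nonpulsed series 1 complex II was at -0.55, complex III at -0.44, complex IV at -0.27 and complex V at -0.33. In the same array the median of 11 cardiomyocyte markers was -0.58 and that of 10 smooth muscle and pericyte markers 0.77. There, 12 fibroblast markers were at 0.57 and 8 macrophage markers at 0.98, and the β-actin 3′ minus 5′ probe difference was 0.45, against 0.60 to 0.77 on the other 9 arrays. The GAPDH 3′ minus 5′ difference was 0.19 to 0.23 on the blebbistatin arrays, above the 0.060 to 0.18 of the 7 others. In pulsed series 4 the cardiomyocyte markers were at -0.035, fibroblast markers at 0.65 and macrophage markers at 0.93. The pulsed array of series 1, in which the 45 genes were at 0.093, had cardiomyocyte markers at 0.15, fibroblast markers at 0.63 and macrophage markers at 0.69. The part of these in the results was not tested. In such bulk samples, fewer cardiomyocytes and less RNA per cardiomyocyte cannot be told apart.

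**Figure D1:**
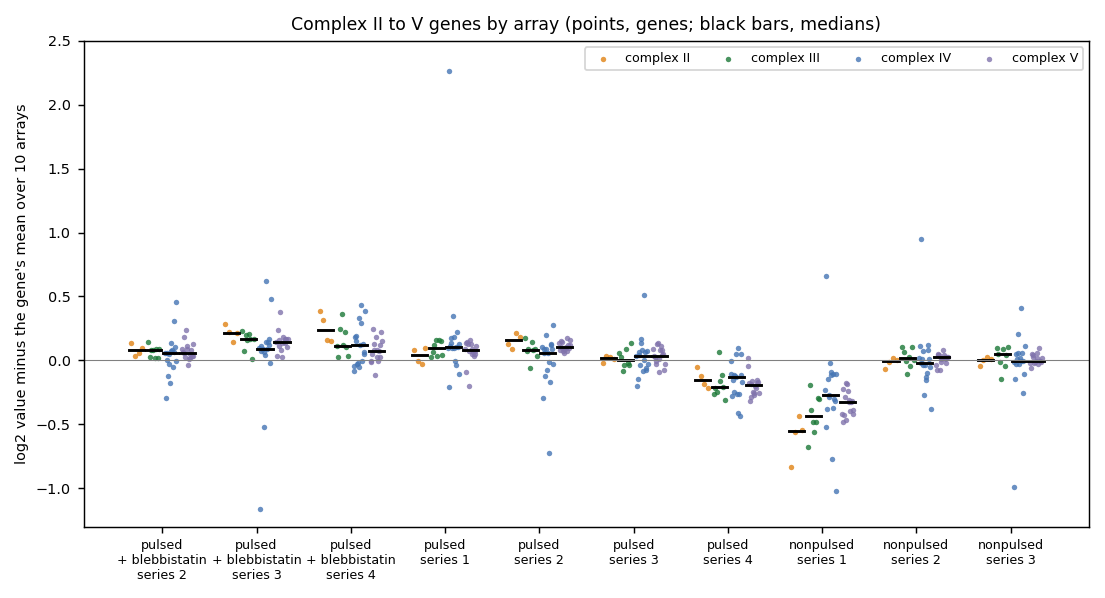
Log2 value of each of the 45 genes minus that gene's mean over the 10 arrays (vertical axis), by array (horizontal axis), coloured by complex, with black bars for the median of each complex. The medians of all 4 complexes lie below 0 in the pulsed array of series 4 and lowest in the nonpulsed array of series 1; the point above 2 is Cox4i2 in the pulsed array of series 1.

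Pulsed against nonpulsed cultures asks how these genes differ with electric pacing. Most of them were slightly higher in pulsed cultures, and none passed the test. The median fitted change was 0.14 (log2) over the 45 genes and 0.047 over all 18393 genes and unnamed probe sets tested. With each array centred on its median, these were 0.072 and -0.024. The change was positive for 43 of 45, where 62.0% of all genes had a positive change. With limma and Benjamini-Hochberg adjustment over all genes, 0 of the 45 passed at 0.05, as did 0.0% of all genes, whose lowest adjusted value was 0.49. With no adjustment, 1 of 45 was higher at p under 0.05 (2.22%, against 7.83% of all genes) and 0 were lower (against 1.27%). With a trended prior in limma, which lets the expected spread follow the level, 7 of 45 were higher, where 7.82% of all genes were. Pulsed and nonpulsed arrays did not overlap for 3 genes, Atp5f1b, Cox8a and Uqcrc1 (6.67%, against 6.3%), and 0 genes had all pulsed arrays lower (against 1.04%).

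The difference was not the same size in each series. Its median over the 45 genes was 0.42, 0.091 and 0.012 in series 1, 2 and 3, where all genes had 0.11, 0.034 and 0.029. It was positive for 45, 38 and 27 genes in those series, and in all 3 series for 21 genes (46.7%, against 24.7% of all genes), while 0 were lower in all 3 (against 9.67%). Without the arrays of series 1, the median fitted change was 0.005 and the count of positive fitted changes was 24 of 45, and it was likewise 24 when only the nonpulsed or only the pulsed array of series 1 was left out. By complex, the median fitted change was 0.20 for complex II, 0.16 for complex III and 0.14 for both complex IV and complex V.

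Blebbistatin-treated pulsed cultures against pulsed cultures asks how they differ with the drug under the same pacing. Fitted changes were small, mostly positive, and none passed. The median was 0.071 over the 45 genes and 0.024 over all genes, and 36 of 45 were positive, against 55.7% of all genes. With limma, 0 of 45 passed the adjusted threshold, against 0.0163% of all genes, which is 3 genes. At an unadjusted p under 0.05, 1 gene was higher (2.22%, against 6.23%) and 0 were lower (against 5.6%). Within series 2, 3 and 4 the median was -0.024, 0.12 and 0.30, with 18, 39 and 43 genes positive. The difference was positive in all 3 series for 14 genes (31.1%, against 24.1%) and negative in all 3 for 0 (against 15.1%). Without the pulsed array of series 4, or without its blebbistatin array, 15 of 45 fitted changes were positive and their median was -0.039. Without either array of series 1, 5 of 45 were higher at an unadjusted p under 0.05, where 9.84% of all genes were. Cox8b and Sdha were the 2 genes whose blebbistatin arrays all lay above the pulsed arrays (4.44%, against 6.34%), and 0 genes had them all below (against 3.69%). By complex, the medians were 0.11 for complex II, 0.093 for complex III, 0.052 for complex IV and 0.067 for complex V.

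Blebbistatin-treated pulsed against nonpulsed cultures sets pacing and drug together against neither. Most genes were again higher in the treated cultures, with none passing. The median fitted change was 0.21, against 0.075 over all genes, and 43 of 45 were positive, against 61.4%. The median was 0.12 with either the nonpulsed or the pulsed array of series 1 left out. It was 0.056 within series 2 and 0.12 within series 3, where all genes had 0.062 and 0.036. With limma, 0 of 45 passed, against 0.343% of all genes. At an unadjusted p under 0.05, 6 genes were higher (13.3%, against 15.8%) and 0 lower (against 6.8%). With a trended prior in limma the count higher was 12 of 45, where 16.1% of all genes were. Without series 2 the count higher was 2, where 9.14% of all genes were, and without series 3 it was 1, where 11.9% were. The blebbistatin arrays lay above every nonpulsed array for 23 genes (51.1%, against 18.1%) and below for 0 (against 6.77%). The 23 included all 4 of complex II, 4 of 8 in complex III, 6 of 17 in complex IV and 9 of 16 in complex V. In both series with these groups, 32 genes were higher (71.1%, against 39.1%) and 2 lower (4.44%, against 25.2%). The medians by complex were 0.31 for complex II, 0.25 for complex III, 0.14 for complex IV and 0.20 for complex V.

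**Figure D2:**
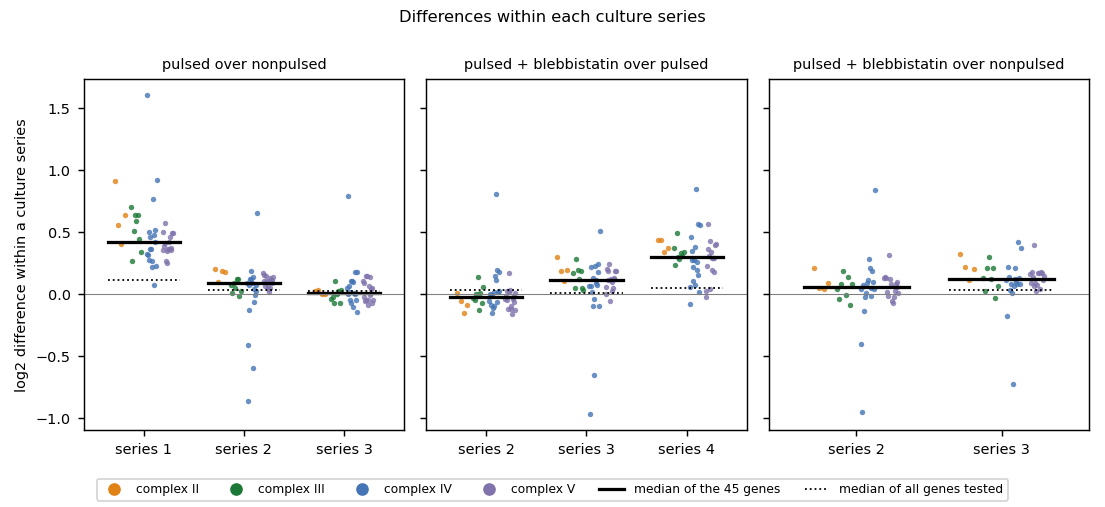
Log2 difference within each culture series (vertical axis) for the 3 comparisons (panels), 1 point per gene coloured by complex, with the median of the 45 genes (solid) and of all genes tested (dotted). The median of the 45 genes lies well above that of all genes in series 1 (pulsed over nonpulsed, median 0.42) and series 4 (pulsed with blebbistatin over pulsed, median 0.30), and close to it in series 2.

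**Figure D3:**
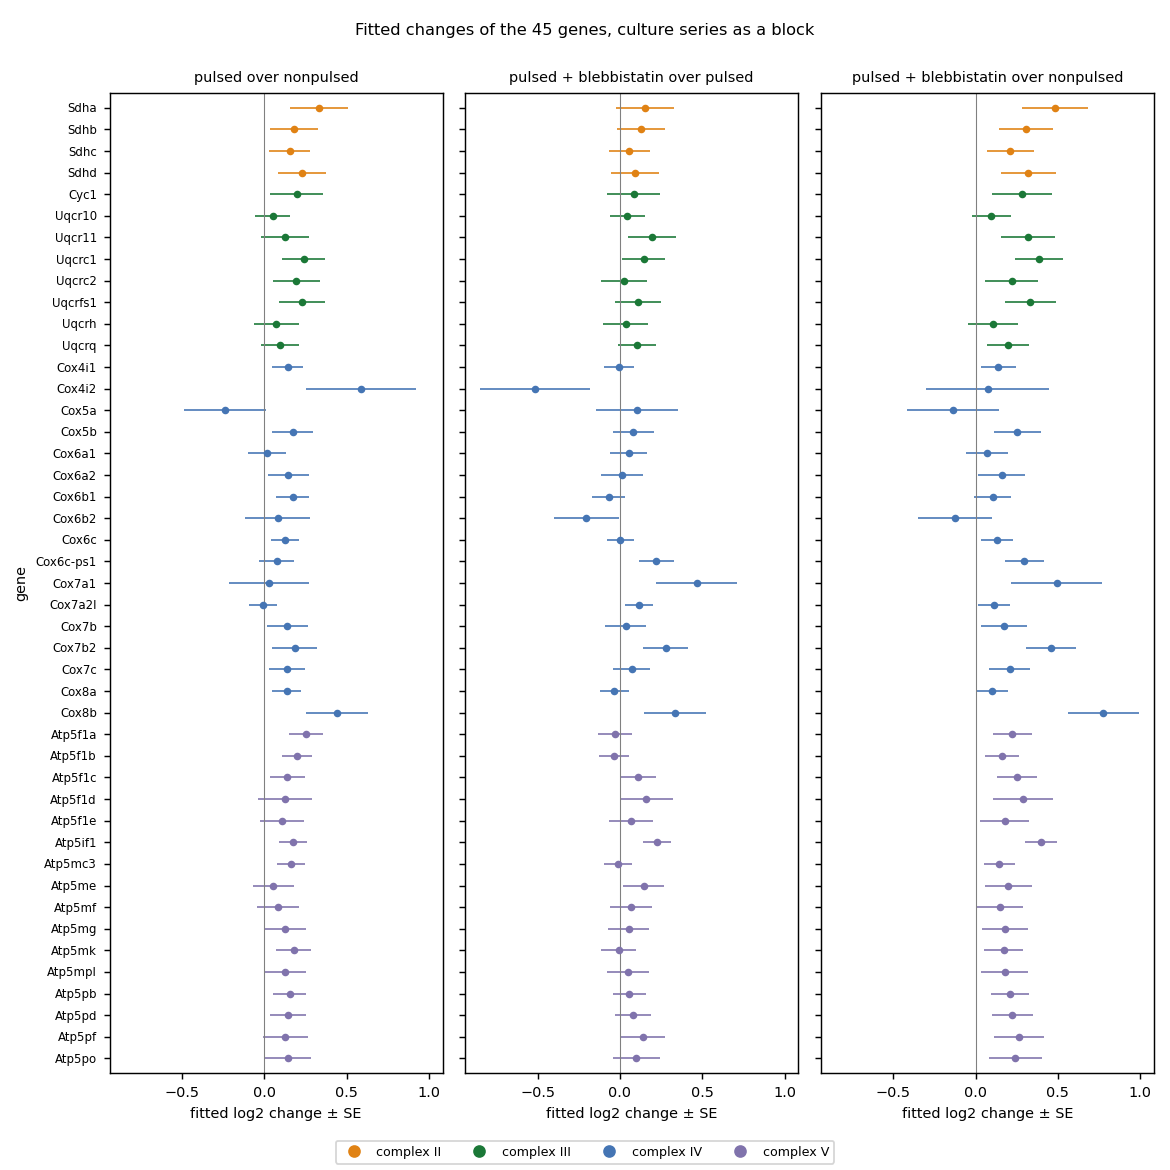
Fitted log2 change of each of the 45 genes with its standard error (horizontal axis) in the 3 comparisons (panels), from limma with culture series as a block, grouped by complex. Changes are mostly positive and within about 2 standard errors of 0, and Cox8b is farthest to the right in blebbistatin-treated over nonpulsed cultures, at 0.78.

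In complex II the nonpulsed array of series 1 was the lowest of the 10 for each of the 4 genes, and blebbistatin arrays lay above all nonpulsed ones. Sdha, the flavoprotein that oxidises succinate, had 12.16, 12.30 and 12.41 with blebbistatin, 12.10, 12.15, 12.003 and 11.97 in pulsed cultures and 11.19, 11.95 and 11.98 in nonpulsed cultures. Its blebbistatin arrays lay above all others, and 1 nonpulsed array was far below the rest. The fitted change of Sdha was 0.33 (SE 0.18, adjusted p = 0.60 with limma) for pulsed over nonpulsed, 0.15 (SE 0.18, adjusted p = 0.78) for blebbistatin over pulsed and 0.48 (SE 0.20, adjusted p = 0.21) for blebbistatin over nonpulsed. Within series, pulsed minus nonpulsed was 0.91, 0.20 and 0.025, and blebbistatin minus nonpulsed was 0.21 and 0.33 in series 2 and 3. Sdhb, the iron-sulfur subunit, had 12.11, 12.29 and 12.38 with blebbistatin, 12.07, 12.16, 12.10 and 11.94 in pulsed cultures and 11.51, 12.06 and 12.07 in nonpulsed cultures. Its pulsed arrays overlapped both other groups, while blebbistatin and nonpulsed arrays did not overlap. For Sdhc and Sdhd, the membrane anchors, the blebbistatin-over-nonpulsed changes were 0.21 (SE 0.14) and 0.32 (SE 0.17), and the groups did not overlap. Within series 2 and 3 these differences were 0.039 and 0.11 for Sdhc and 0.094 and 0.20 for Sdhd. All 4 genes were higher in pulsed than nonpulsed cultures in each of series 1, 2 and 3, by 0.003 to 0.033 in series 3. A second probe set of Sdhd pointed the same way in each comparison.

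In complex III, Uqcrc1, a core subunit, was the clearest case. It had 12.25, 12.33 and 12.54 with blebbistatin, 12.33, 12.11, 12.14 and 12.24 in pulsed cultures and 11.69, 12.06 and 12.03 in nonpulsed cultures. The nonpulsed arrays were below all 7 others, while blebbistatin and pulsed arrays overlapped. The fitted change was 0.24 (SE 0.13, adjusted p = 0.61, limma) for pulsed over nonpulsed and 0.38 (SE 0.15, adjusted p = 0.19) for blebbistatin over nonpulsed. Within series 2 and 3 the latter difference was 0.19 and 0.30. Cyc1, the cytochrome c1 subunit, had 12.58, 12.67 and 12.55 with blebbistatin, 12.46, 12.61, 12.50 and 12.18 in pulsed cultures and 11.76, 12.54 and 12.54 in nonpulsed cultures. Pulsed and nonpulsed arrays of Cyc1 overlapped, and the lowest value was again the nonpulsed array of series 1. The fitted change of Cyc1 for pulsed over nonpulsed was 0.20 (SE 0.16). It was -0.034 with either the nonpulsed or the pulsed array of series 1 left out. Uqcr11, a small accessory subunit, had the largest blebbistatin-over-pulsed change of the complex, 0.19 (SE 0.15), and Uqcrc2, the other core subunit, the smallest, 0.025 (SE 0.14). Uqcr10, also an accessory subunit, had the smallest change for pulsed over nonpulsed, 0.050 (SE 0.11), and for blebbistatin over nonpulsed, 0.095 (SE 0.12).

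Of the 17 complex IV genes, Cox8b had the largest fitted change for blebbistatin over nonpulsed, while the dim Cox4i2 had larger ones in the other comparisons and the dim Cox7a1 for blebbistatin over pulsed. Cox8b had 12.60, 12.63 and 12.53 with blebbistatin, 12.05, 12.43, 12.12 and 11.98 in pulsed cultures and 11.13, 11.77 and 12.26 in nonpulsed cultures. The blebbistatin arrays lay close together and above the other 7, while the nonpulsed array of series 3 fell among the pulsed ones. The group means were 12.59 ± 0.051 with blebbistatin (SD, n = 3), 12.14 ± 0.20 in pulsed (n = 4) and 11.72 ± 0.57 in nonpulsed cultures (n = 3). With limma, the change was 0.78 (SE 0.21, adjusted p = 0.11) for blebbistatin over nonpulsed, 0.34 (SE 0.19, adjusted p = 0.53) for blebbistatin over pulsed and 0.44 (SE 0.19, adjusted p = 0.55) for pulsed over nonpulsed. Within series the last was 0.92, 0.66 and -0.14. Cox8b passed for blebbistatin over nonpulsed when series was a random block, where the change was 0.82. In that setting it was 1 of 45 genes to pass, where 1020 of all 18393 genes and unnamed probe sets did. Its ubiquitous counterpart Cox8a had 12.93, 12.92 and 13.01 with blebbistatin, 13.06, 12.91, 13.01 and 12.99 in pulsed cultures and 12.83, 12.89 and 12.83 in nonpulsed cultures. Its nonpulsed arrays lay below all others and its blebbistatin-over-pulsed change was -0.034 (SE 0.087).

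The change of Cox8b minus that of Cox8a was 0.37 for blebbistatin over pulsed, positive in 3 of 3 series (0.16, 0.61 and 0.54). The exact two-sided permutation p within series was 0.25, the smallest that 3 series allow. For blebbistatin over nonpulsed it was 0.68, positive in 2 of 2 series (0.79 and 0.28; exact permutation p = 0.5, the smallest that 2 series allow). For pulsed over nonpulsed it was 0.31, with 0.69, 0.64 and -0.32 within series (exact permutation p = 0.5). These designs cannot reach 0.05, and 9 such pair differences were computed in all, so no adjusted value could pass either.

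The other bright muscle isoform, Cox6a2, had 12.97, 13.01 and 12.89 with blebbistatin, 13.09, 13.11, 12.88 and 12.67 in pulsed cultures and 12.63, 12.99 and 12.93 in nonpulsed cultures, so the groups overlapped. Cox6a1 had 12.36, 12.57 and 12.64 with blebbistatin, 12.62, 12.36, 12.55 and 12.37 in pulsed cultures and 12.34, 12.49 and 12.53 in nonpulsed cultures, also overlapping. The change of Cox6a2 minus that of Cox6a1 was 0.13 for pulsed over nonpulsed (0.19, 0.26 and -0.066 within series, exact permutation p = 0.5). It was -0.039 for blebbistatin over pulsed (-0.15, 0.11 and -0.051, exact permutation p = 0.75) and 0.089 for blebbistatin over nonpulsed (0.11 and 0.046, exact permutation p = 0.5). Whether Cox8b and Cox6a2 differ in their change was not tested. Cox7a1 was dim, with 5.69, 6.24 and 6.05 with blebbistatin, 5.61, 4.89, 6.12 and 5.20 in pulsed cultures and 4.84, 5.48 and 6.02 in nonpulsed cultures. Its groups overlapped, and its change was 0.47 (SE 0.24, adjusted p = 0.50, limma) for blebbistatin over pulsed, positive in 3 of 3 series, and 0.028 (SE 0.24) for pulsed over nonpulsed. No pair value was computed for Cox7a1 because Cox7a2 is read only with another symbol.

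**Figure D4:**
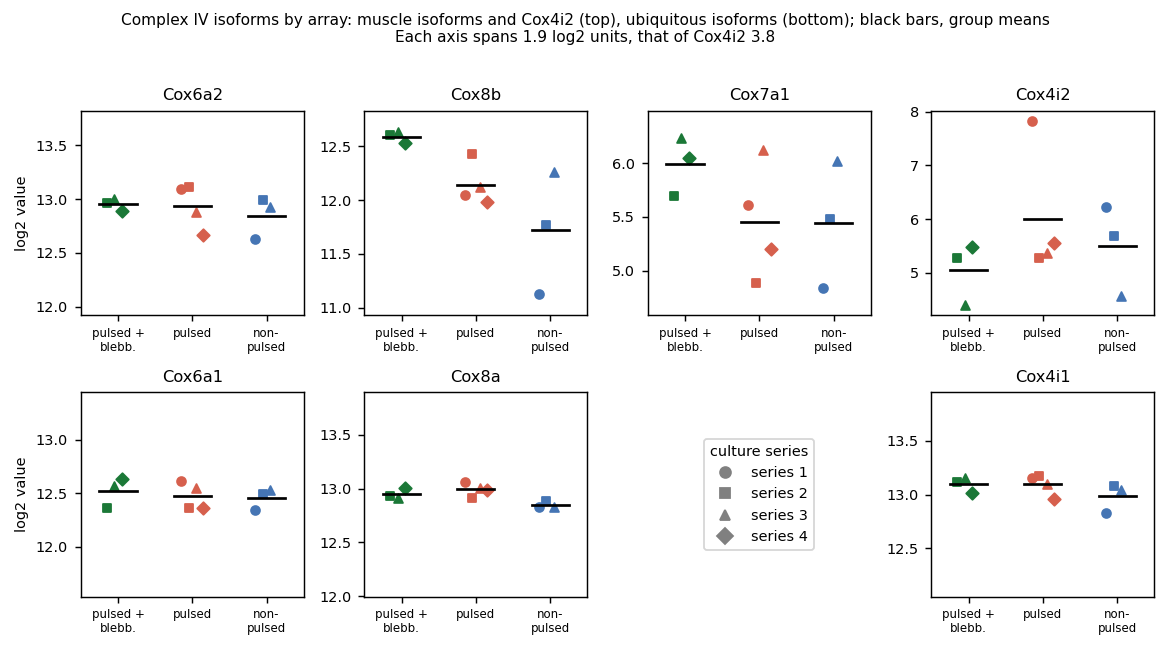
Log2 value by array (vertical axis) of the muscle isoforms Cox6a2, Cox8b and Cox7a1 and of Cox4i2 (top), with the ubiquitous isoforms Cox6a1, Cox8a and Cox4i1 (bottom), by group (horizontal axis), marker shape for culture series and black bars for group means. The 3 blebbistatin arrays of Cox8b lie above its 7 other arrays, and the groups overlap for Cox6a2, Cox7a1 and Cox4i2.

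Cox4i2, dim throughout, had 5.27, 4.40 and 5.48 with blebbistatin, 7.83, 5.27, 5.37 and 5.56 in pulsed cultures and 6.22, 5.68 and 4.58 in nonpulsed cultures. The pulsed array of series 1 was far above the other 9, and the groups overlapped. Its change was 0.59 (SE 0.33) for pulsed over nonpulsed and -0.52 (SE 0.33) for blebbistatin over pulsed. Cox4i1, the common form, had group means of 13.10 ± 0.072 with blebbistatin (SD, n = 3), 13.10 ± 0.097 in pulsed (n = 4) and 12.99 ± 0.13 in nonpulsed cultures (n = 3). The change of Cox4i2 minus that of Cox4i1 was 0.45 for pulsed over nonpulsed (1.28, -0.50 and 0.74 within series), -0.51 for blebbistatin over pulsed (0.055, -1.03 and -0.14) and -0.064 for blebbistatin over nonpulsed (-0.44 and -0.29). The exact permutation p was 0.5 in each. Cox5a had the most negative change of the 45 for pulsed over nonpulsed, -0.24 (SE 0.25), and 1 nonpulsed array, that of series 2, was high at 8.98. Without that array the change of Cox5a was 0.15. Cox7b2, known as a testis isoform, and Cox6c-ps1, a transcribed pseudogene, were both dim. Their changes for blebbistatin over nonpulsed were 0.46 (SE 0.15, adjusted p = 0.15, limma) and 0.30 (SE 0.12, adjusted p = 0.20), with no overlap between these groups. A pseudogene probe set can also read its parent gene, here Cox6c, whose change was 0.13 (SE 0.096).

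In complex V, Atp5f1a and Atp5f1b, subunits of the catalytic part, were higher in pulsed cultures in all 3 series. Atp5f1a had 12.89, 12.94, 12.89 and 12.76 in pulsed cultures and 12.39, 12.76 and 12.78 in nonpulsed cultures, overlapping narrowly. Its change was 0.25 (SE 0.10, adjusted p = 0.54, limma), which had the smallest unadjusted p of the 45 in this comparison. Atp5f1b had 13.37, 13.31, 13.26 and 13.25 in pulsed cultures and 13.01, 13.16 and 13.18 in nonpulsed cultures, with no overlap, and a change of 0.20 (SE 0.090, adjusted p = 0.56). For blebbistatin over pulsed their changes were -0.029 (SE 0.10) and -0.037 (SE 0.090).

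Atp5if1 encodes the inhibitor that stops ATP synthase from running backwards. It had 12.10, 12.24 and 11.99 with blebbistatin, 11.66, 11.93, 11.99 and 11.68 in pulsed cultures and 11.39, 11.79 and 11.84 in nonpulsed cultures. Blebbistatin and nonpulsed arrays did not overlap, and blebbistatin exceeded pulsed in 3 of 3 series (0.17, 0.25 and 0.31). The change was 0.40 (SE 0.097, adjusted p = 0.094, limma) for blebbistatin over nonpulsed, the smallest adjusted p of the 45, and 0.23 (SE 0.086, adjusted p = 0.39) for blebbistatin over pulsed. Atp5if1 has 2 further, dimmer probe sets that disagree with each other. Their mean within-series differences for blebbistatin over nonpulsed were -0.67 and 0.16, against 0.35 for the probe set used. A dim further probe set of Atp5po, a subunit of the peripheral stalk, also pointed the other way, at -0.35 against 0.076. Atp5f1c and Atp5f1d, further subunits of the catalytic part, and Atp5pf, another subunit of the peripheral stalk, had changes of 0.25 (SE 0.12), 0.29 (SE 0.19) and 0.27 (SE 0.15) for blebbistatin over nonpulsed. Within series 2 and 3, which hold both groups, the differences were smaller. They were 0.13 and 0.18 for Atp5f1c, 0.017 and 0.14 for Atp5f1d, and 0.10 and 0.12 for Atp5pf. The range over arrays of the 16 genes ran to 0.31 for Atp5mc3 at the low end and 0.84 for Atp5if1 at the high end. Atp5mc3, which encodes the rotor ring subunit, had changes of 0.16, -0.013 and 0.15 in pulsed over nonpulsed, blebbistatin over pulsed and blebbistatin over nonpulsed. Atp5me, a membrane subunit, had 0.054, 0.15 and 0.20.

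Genes that build and supply the complexes were described from lists of assembly factors, ATP export genes and transcriptional regulators. Of 34 assembly factors tested, 22 had a positive change for pulsed over nonpulsed (background 62.0% positive), with a median of 0.065, and 0 passed. There, 1 of 34 was higher at an unadjusted p under 0.05 (background 7.83% higher). For blebbistatin over pulsed 34 of 34 were positive (background 55.7% positive), with a median of 0.21. Within series 2, 3 and 4 the median of the list was 0.071, 0.22 and 0.43. In this comparison 7 were higher at an unadjusted p under 0.05 (background 6.23% higher). For blebbistatin over nonpulsed 32 were positive (background 61.4% positive), with a median of 0.28. Of these, 14 were higher at an unadjusted p under 0.05 (background 15.8% higher), again with 0 passing. Cox10, which makes the heme A precursor of complex IV, had the largest changes of the list, 0.35 (SE 0.18), 0.47 (SE 0.18) and 0.81 (SE 0.20, adjusted p = 0.097, limma) in the order above. The assembly factors were at -0.21 in the pulsed array of series 4 and -0.41 in the nonpulsed array of series 1, relative to their means.

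Of 19 regulators tested, 19, 17 and 17 had positive changes for pulsed over nonpulsed, blebbistatin over pulsed and blebbistatin over nonpulsed, with medians of 0.21, 0.13 and 0.36 and 0 passing. Over all genes, 62.0%, 55.7% and 61.4% of changes were positive. At an unadjusted p under 0.05, 6, 4 and 11 were higher, where 7.83%, 6.23% and 15.8% of all genes were. Ppargc1b, a coactivator of mitochondrial genes, had the largest changes of the list for pulsed over nonpulsed, 1.03 (SE 0.33), and for blebbistatin over nonpulsed, 1.52 (SE 0.37, adjusted p = 0.094, limma). For Ppargc1b, the pulsed minus nonpulsed differences were 1.89, 1.1 and 0.064 in series 1, 2 and 3. Perm1, a muscle coactivator of the same genes, had the largest change for blebbistatin over pulsed, 0.93 (SE 0.22, adjusted p = 0.28). Of 8 ATP export genes, 6, 5 and 8 had positive changes. Ckmt2, the mitochondrial creatine kinase of muscle, had 0.93 (SE 0.46), 0.52 (SE 0.46) and 1.45 (SE 0.51, adjusted p = 0.16). Within series, pulsed minus nonpulsed Ckmt2 was 2.49, 0.69 and 0.063.

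Cardiomyocyte markers, averaged over the list in each array, were bright in every group. This average was 12.90 to 13.03 (log2) across blebbistatin arrays, 12.81 to 13.06 across pulsed arrays and 12.28 to 12.86 across nonpulsed arrays. Of these markers, 0 of 11 lay at the lowest level on every array. Their median change was 0.28 for pulsed over nonpulsed, with 0.80, 0.19 and 0.017 within series, and 11 of 11 were positive. It was 0.026 for blebbistatin over pulsed and 0.28 for blebbistatin over nonpulsed. Fibroblast markers had a median change of -0.29 for blebbistatin over pulsed, with 11 of 12 negative, and smooth muscle markers -0.50, with 10 of 10 negative. For blebbistatin over nonpulsed the medians were -0.30 for fibroblast markers (11 of 12 negative), -0.60 for smooth muscle markers (9 of 10), -0.44 for macrophage markers (8 of 8) and -0.077 for endothelial markers (4 of 6). Mfap5, a microfibril protein of fibroblasts, passed there, with a change of -2.08 (SE 0.19, adjusted p = 0.031, limma). The average over the fibroblast markers was 10.06 to 11.62 across blebbistatin, 10.61 to 12.10 across pulsed and 10.64 to 12.09 across nonpulsed arrays. That over the smooth muscle markers was 8.84 to 9.19, 9.55 to 9.84 and 9.48 to 10.21 across the arrays of the same groups. Macrophage markers had medians of -0.33 for blebbistatin over pulsed and 0.025 for pulsed over nonpulsed, and 6 endothelial markers -0.10 and 0.14. The part of these cell types in the changes of the 45 genes was not tested.

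Promoters of 38 of the 45 genes were in the RefSeq table, and motifs were counted in the 250 bases before the gene start, on both strands and with overlaps between motifs allowed. The ETS motif CCGGAAG was in 12 of 38 windows (31.6%), against 7.27% of all 33469 promoters. The estrogen-related receptor (ERR) motif AAGGTCA was in 13.2%, against 3.99%, and the NRF1 motif (GCGC on either side of NT) in 13.2%, against 3.75%. Of the 5 windows with the ERR letters, 4 belonged to complex V (Atp5f1a, Atp5f1e, Atp5mc3 and Atp5mg) and 1 to complex III (Uqcrq). NRF1 letters were in Sdha, Uqcrc1, Atp5me, Atp5mpl and Atp5po. Among 13 windows of complex IV, 0 held the ERR or the NRF1 letters. The MEF2 motif was searched loosely, as CTA and TAG with any 4 bases between. It was in 2 windows (5.26%, against 3.41%), those of Cox6a2 (CTAAAAATAG) and Cox5b (CTACCTTTAG). The YY1 motif AAGATGGC was in 2 (5.26%, against 1.63%), and the E-box CANNTG in 63.2%, against 65.5%. Median GC content was 54.4% in the 38 windows and 51.2% in all promoters, and these shares are descriptions without a test.

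**Figure D5:**
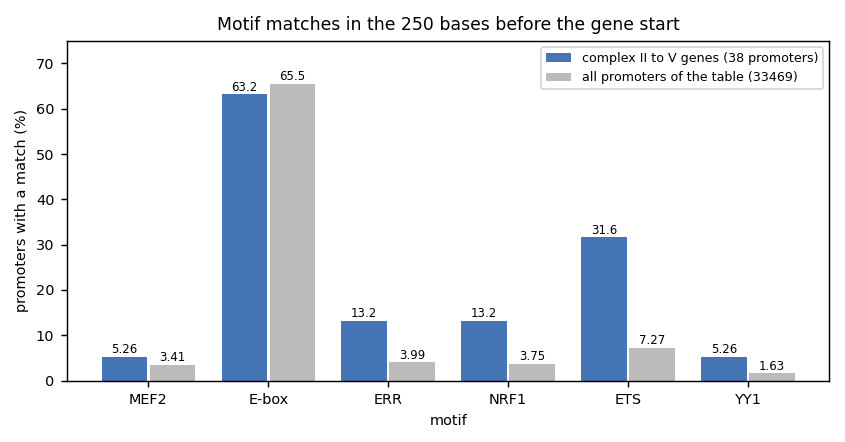
Share of promoters with at least 1 match in the 250 bases before the gene start (vertical axis, %) for 6 motifs (horizontal axis), in the 38 complex II to V promoters (blue) and all 33469 promoters (grey). ETS, ERR and NRF1 letters are more frequent in the blue bars (31.6%, 13.2% and 13.2%) and the E-box is about equal.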

How the data were processed

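RNA was extracted with Trizol and biotin-labelled, per the labels' protocols. The authors deposited log2 values, 1 for each probe set on each array. Per the submitters' processing notes, PLIER and Affymetrix Expression Console 1.1 were used; the settings and log base are not given there, and base 2 was taken from the lowest level. Groups and culture series came from the labels. The design text speaks of 3 arrays per treatment, and all 4 labelled pulsed arrays were used. Of 31099 probe sets, 57 controls were left out, then the lowest 25% by mean (below 5.09), and the brightest probe set was kept per gene, which left 18393 tested.

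Changes were fitted with limma 3.58.1 in R 4.3.3 on all 10 arrays with series as a fixed block (lmFit, eBayes, two-sided), and p-values adjusted by Benjamini-Hochberg over all tested at 0.05. The fit also uses the third group. Series pair the arrays: deviations from group means correlated at 0.35 to 0.64 in 8 same-series pairs and at a median of -0.25 in 25 others, a contrast partly built in. Isoform pairs were tested by exact permutation within series. The fit was tested on simulated data, but only with changes larger than any fitted for the members, so changes of their size were not covered. The number of arrays limits the precision. With series as a fixed block, the limma p-values rest on how differences between groups vary from one culture series to another. They do not rest on a gene's own variation alone, because eBayes draws each gene's spread toward a value shared by all genes tested. Named genes were the isoform pairs, Sdha to Sdhd, Cyc1, the extreme changes per complex and the 3 smallest p per comparison; the other members named were chosen after their values were seen. The members, lists and motifs were chosen with earlier results of these data known. Alternatives were no block or a random block, median centring, quantile normalization, another filter or probe set rule, a trended prior, only the series or groups compared, and leaving out arrays or series. No cytochrome c or Cox7a1 pair value is given, because their probe sets carry several symbols.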

Additional observations from a re-analysis of the deposited data

Results flagged for a closer look

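Of 48 genes and isoform pairs checked in the 4 pulsed arrays, 5 had an array far from the others by Dixon's criterion, the gap to the nearest array over the range of the group. Chance alone flags about 5% of such groups. The pulsed array of series 4 was low for Atp5mg at 12.24, for Atp5mpl at 11.77, for Cox7b at 12.63 and for Uqcr10 at 12.44. Atp5mg had 12.60, 12.61 and 12.59 on the other pulsed arrays, and Cox7b 12.99, 13.02 and 12.95. The pulsed array of series 1 was high for Cox4i2 at 7.83, against 5.27 to 5.56 on the other pulsed arrays.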

How the results depend on the processing

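Each group had 3 or 4 arrays and each comparison 2 or 3 series with both groups, which limits the precision. With the lowest 50% left out, 42 of the 45 genes were tested. No member passed under any alternative except 1, Cox8b, with a random replicate block for blebbistatin over nonpulsed. The count of all genes passing for blebbistatin over pulsed was 3, and 1 with no replicate block, 7 with a random block, 0 with no filter, 6 with the lowest 50% left out, 8 with a trended prior, 30 with only the series holding both groups and 0 with only these groups; leaving out arrays or series gave 0 to 30, with 30 reached without series 1. For blebbistatin over nonpulsed it was 63, and in the same order 30 and 1020 for the blocks, 1 with no filter, 163 with a trended prior, 19 with the shared series and 2 with these groups; leaving out gave 0 to 46. The median change of the 45 genes for blebbistatin over nonpulsed was 0.12 with median centring and 0.077 with only the shared series or these groups, and 0.12 to 0.30 on leaving out arrays or series. Without the replicate block, the Cox6a2 minus Cox6a1 change was 0.039 and the Cox4i2 minus Cox4i1 change -0.55 for blebbistatin over nonpulsed; the Cox4i2 pair gave -0.30 with a random block and -0.37 with the shared series or these groups. On leaving out arrays or series the Cox6a pair ranged over 0.043 to 0.16 and the Cox4i pair over -0.31 to 0.36. The causes of these shifts were not tested.

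Signs of small changes turned in places. Pulsed over nonpulsed turned with median centring for Atp5me (-0.017), Cox6a1 (-0.053), Cox7a1 (-0.043) and Uqcr10 (-0.021), and with quantile normalization for Cox6a1 (-0.009) and Cox7a1 (-0.037). Blebbistatin over pulsed turned with quantile normalization for Atp5f1b (0.029), Atp5mc3 (0.025), Cox4i1 (0.047) and Cox8a (0.012), with no replicate block for Atp5f1a (0.006) and Cox4i1 (0.003), and with only the shared series or these groups for Atp5f1a (0.013), Atp5mc3 (0.003) and Cox4i1 (0.024). Blebbistatin over nonpulsed turned with median centring for Cox4i2 (-0.011) and Cox6a1 (-0.013), with no or a random replicate block for Cox4i2 (-0.44 and -0.17), and with the shared series or these groups for Cox4i2 (-0.29), Cox6a1 (-0.049) and Uqcr10 (-0.007). On leaving out arrays or series, pulsed over nonpulsed ranged over -0.080 to 0.14 for Atp5me, -0.50 to 0.15 for Cox5a, -0.10 to 0.11 for Cox6a1, 0 to 0.23 for Cox6a2, -0.015 to 0.17 for Cox6c-ps1, -0.31 to 0.32 for Cox7a1, -0.034 to 0.31 for Cyc1, -0.048 to 0.099 for Uqcr10 and -0.051 to 0.22 for Uqcr11. Each low end was reached with either the nonpulsed or the pulsed array of series 1 left out, which gave the same values. Blebbistatin over nonpulsed ranged over -0.22 to 0.54 for Cox4i2, -0.38 to 0.40 for Cox5a and -0.005 to 0.21 for Cox6a1. Blebbistatin over pulsed ranged over -0.075 to 0.013 for Atp5f1a, -0.039 to 0.013 for Atp5mc3, -0.039 to 0.033 for Cox4i1, -0.058 to 0.38 for Cox5a, -0.048 to 0.12 for Cox6a1, -0.081 to 0.11 for Cox6a2, -0.047 to 0.18 for Cyc1, -0.016 to 0.25 for Sdhb, -0.073 to 0.16 for Sdhc, -0.034 to 0.20 for Sdhd, -0.044 to 0.11 for Uqcr10 and -0.094 to 0.13 for Uqcrc2. The low ends from Cox5a on were reached with either the pulsed or the blebbistatin array of series 4 left out.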
